A study of Mus musculus with 4 samples.

Results

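A set of 10 genes of bone morphogenetic protein (BMP) signalling was followed across 4 arrays of cultured C57BL/6 mouse cells. They were chosen by name, as the probe sets of Bmp2, Bmp4, Nog, Grem1, Smad6, Smad7, Id1, Id2, Id3 and Id4, and all 10 were found among 19938 genes with a level. Each had a single probe set, so no choice between probe sets was needed. The arrays held mesenchymal stem cells (MSC) grown in medium with 1 ng/ml of basic fibroblast growth factor (bFGF, also FGF2), here called treated MSC, the same kind of cells grown in that medium without it, here called untreated MSC, osteoblasts, and embryonic stem cells. Both MSC cultures were plastic-adherent cells flushed from the marrow of femur and tibia and expanded in serum. The osteoblasts came from an enzyme digest of the calvariae of newborn mice, pooled from the last digestion steps and likewise expanded in serum. How the embryonic stem cells were grown is not given in the sources used here. The series set out to compare the effect of bFGF on marrow MSC, with osteoblasts and embryonic stem cells as controls. Each culture was measured on 1 array, so differences are described without a test.

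BMPs are secreted proteins that bind paired serine/threonine kinase receptors, which phosphorylate the receptor Smads that then enter the nucleus with Smad4. Among their direct targets are the Id genes, whose proteins lack a DNA-binding region and hold E proteins away from DNA, and the inhibitory Smads, which feed back on the receptors. Secreted antagonists such as noggin and gremlin bind BMPs outside the cell. In bone the pathway drives osteoblast formation, and in mouse embryonic stem cells BMP4 acting through Id genes supports self-renewal.

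Promoter windows of the 4 genes with an entry whose levels ranged most, Id2, Id3, Bmp4 and Grem1, show how far members of 1 pathway differ in letters at their start, and that of Smad6 is shown for a palindrome. The windows run from 250 bases before to 50 after the start, 5′ to 3′, and come from RefSeq (GRCm38.p6), where 6 of the 10 genes had an entry. Capitals mark GGCGCC, a GC-rich Smad motif, GTCTAGAC, the Smad palindrome, and CAGAC, the Smad half-site, each searched on both strands, where CAGAC reads GTCTG on the other. No marked motif overlapped another.
Id2, chr12:25096043-25096342, minus strand: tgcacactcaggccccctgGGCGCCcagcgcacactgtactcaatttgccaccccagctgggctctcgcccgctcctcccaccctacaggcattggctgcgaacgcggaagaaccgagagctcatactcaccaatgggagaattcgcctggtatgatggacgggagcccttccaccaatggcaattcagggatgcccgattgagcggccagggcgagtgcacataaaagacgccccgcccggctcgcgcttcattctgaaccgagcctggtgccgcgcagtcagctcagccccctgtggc
Id3, chr4:136143572-136143871, plus strand: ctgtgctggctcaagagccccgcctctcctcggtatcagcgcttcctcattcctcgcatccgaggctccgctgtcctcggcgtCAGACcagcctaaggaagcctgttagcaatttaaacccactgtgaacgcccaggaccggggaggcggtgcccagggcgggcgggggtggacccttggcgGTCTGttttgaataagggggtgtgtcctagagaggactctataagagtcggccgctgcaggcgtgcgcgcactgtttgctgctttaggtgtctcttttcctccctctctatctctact
Bmp4, chr14:46390620-46390919, minus strand: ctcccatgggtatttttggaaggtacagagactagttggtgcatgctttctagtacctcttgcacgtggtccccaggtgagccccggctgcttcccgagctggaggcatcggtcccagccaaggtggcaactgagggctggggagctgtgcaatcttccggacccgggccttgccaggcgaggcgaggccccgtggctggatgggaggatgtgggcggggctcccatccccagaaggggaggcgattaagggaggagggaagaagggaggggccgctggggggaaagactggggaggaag
Grem1, chr2:113758599-113758898, minus strand: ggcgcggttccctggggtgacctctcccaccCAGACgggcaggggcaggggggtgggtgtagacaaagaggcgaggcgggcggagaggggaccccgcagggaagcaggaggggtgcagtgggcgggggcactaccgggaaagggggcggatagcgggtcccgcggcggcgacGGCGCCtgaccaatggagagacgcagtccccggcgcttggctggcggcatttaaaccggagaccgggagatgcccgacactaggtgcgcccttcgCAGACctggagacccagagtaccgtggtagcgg
Smad6, chr9:64022010-64022309, minus strand: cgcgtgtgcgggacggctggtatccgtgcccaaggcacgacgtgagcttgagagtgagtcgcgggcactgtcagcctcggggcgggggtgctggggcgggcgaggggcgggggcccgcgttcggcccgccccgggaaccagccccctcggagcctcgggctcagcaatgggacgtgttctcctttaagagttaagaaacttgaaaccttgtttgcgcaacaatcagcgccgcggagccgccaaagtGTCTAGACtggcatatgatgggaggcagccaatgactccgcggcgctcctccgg

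Of the 6 windows, those of Id2, Id4 and Grem1 held GGCGCC 1 time each, as did 11.9% of all 32851 windows in the RefSeq table. The window of Smad6 held GTCTAGAC at bases 247 to 254, over its start, as did 0.213% of all windows. CAGAC lay 2 times in the window of Id3 and 2 times in that of Grem1, and 49.6% of all windows held it. The window of Bmp4 held none of these letters, which says nothing on more distant sequence.

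The deposited levels were log2 values made with RMA, which corrects background and makes the arrays alike in distribution. A gene was taken to have signal in an array when it exceeded a floor, set at the median level of all probe sets with 1 gene symbol in the same array. The floor lay at 6.32 for treated MSC, 6.29 for untreated MSC, 6.46 for osteoblasts and 6.46 for embryonic stem cells. Above it lay 5, 5, 8 and 10 of the 10 genes in that order. Of 12 embryonic stem cell markers 9 were above the floor in that array, and Zfp42, Esrrb and Fgf4 were under it. Above it there were also 13 of 14 matrix markers and 7 of 8 smooth muscle markers. The latter count was 2 in treated MSC, 3 in untreated MSC and 6 in osteoblasts. Which cells gave this signal was not tested. Of 9 measured osteoblast markers only Dlx5 and Pth1r were above it in the osteoblast array, and the defining genes Sp7, Alpl and Ibsp were under it, so that culture is called osteoblasts by its label alone. Of 11 measured stromal markers 8 were above the floor in treated MSC, 6 in untreated MSC, 9 in osteoblasts and 8 in embryonic stem cells. Thy1, Lepr and Cxcl12 were under it in both MSC arrays, and Eng and Nt5e also in untreated MSC. The name MSC is thus likewise taken from the labels. Of 16 macrophage markers 14 were above the floor in treated MSC, 10 in untreated MSC, 15 in osteoblasts and 13 in embryonic stem cells. In RNA from a mixed culture, fewer cells of a type and less RNA per cell cannot be told apart.

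Higher or lower, in a count, means that the larger of the pair of levels exceeded its floor and the log2 difference reached 1, that is 2-fold. As a technical yardstick, differences of probe sets of the same gene spread around their mean with an SD of 0.26 in the MSC pair and 0.36 to 0.42 in the other pairs, over genes above the floor. This does not measure variation between cultures. The 6 comparisons share 4 arrays, so a gene that is low in 1 array is low in each comparison with it.

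**Figure D1:**
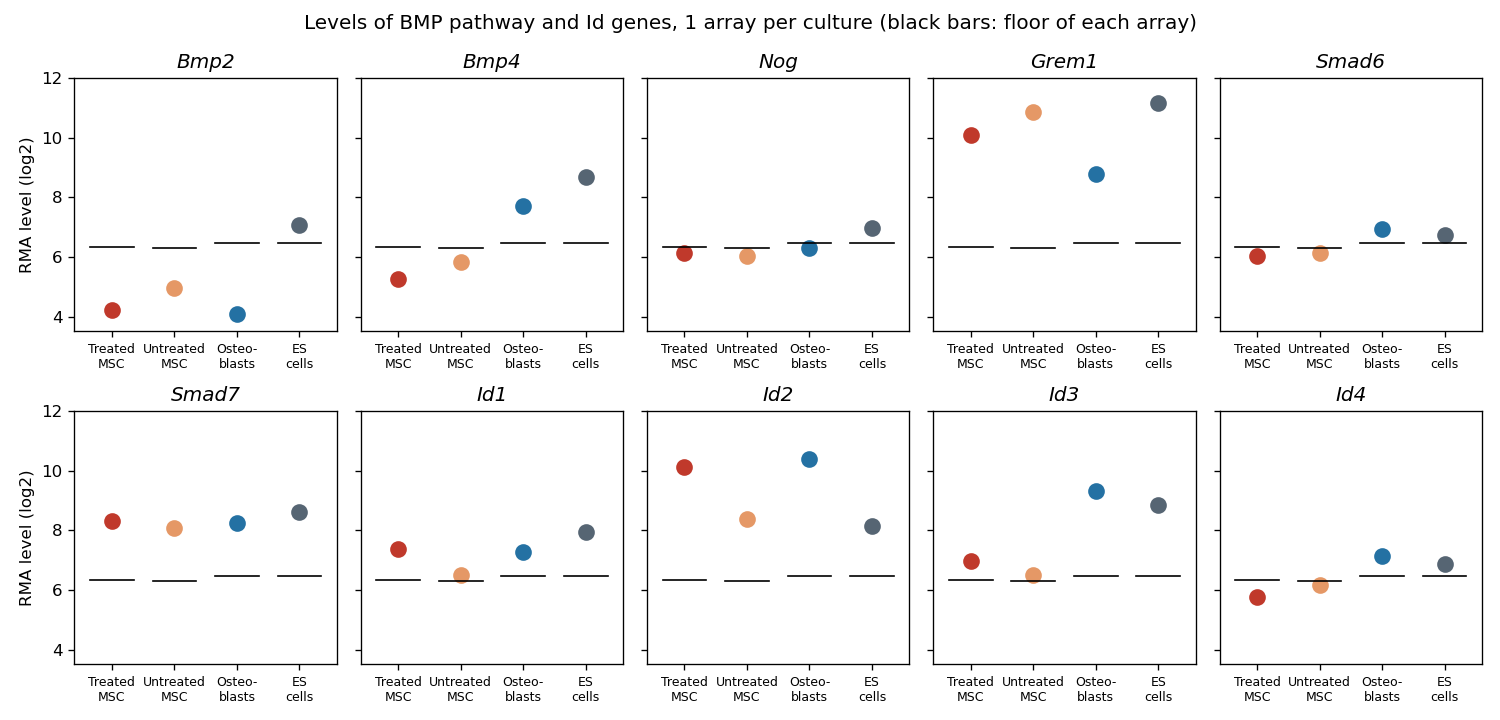
Log2 RMA levels of the 10 genes (vertical axis) in each of the 4 arrays (horizontal axis), with 1 point per array and a black bar at that array's floor. Bmp4, Id3, Id4 and Smad6 lie lower in both MSC arrays than in osteoblasts and embryonic stem cells, while Id2 is high in treated MSC (10.14) and in osteoblasts (10.40).

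Among the ligands, both BMP genes had signal in embryonic stem cells and neither had it in MSC. Bmp4 stood at 5.25 in treated MSC and 5.82 in untreated MSC, against 7.72 (osteoblasts) and 8.68 (embryonic stem cells). The MSC levels lay under the floor and the other pair above it, so these differences are set against levels near background. Bmp4 differed by -2.47 and -1.90 in treated and untreated MSC minus osteoblasts, and by -3.43 and -2.86 in the same arrays minus embryonic stem cells. Only 1.32% of genes above the floor differed as much as Bmp4 between treated MSC and embryonic stem cells. Osteoblasts and embryonic stem cells differed by -0.96, just short of 2-fold, which it passed under repeated quantile normalization (-1.01). Bmp2, a ligand that can induce bone, stood at 4.23 in treated MSC, 4.96 in untreated MSC, 4.09 in osteoblasts and 7.09 in embryonic stem cells. Embryonic stem cells were thus the only array of the 4 with Bmp2 signal above the floor. Against that array Bmp2 differed by -2.86 in treated MSC and -2.13 in untreated MSC, and by -3.00 in osteoblasts. The differences of -0.73 (Bmp2) and -0.57 (Bmp4) between treated and untreated MSC were between levels that lay under the floor in both arrays. They fell inside the central 95% of 1194 olfactory and vomeronasal receptor genes, -0.97 to 0.67, families used mainly in sensory neurons.

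The other BMP ligands had little signal. Of 12 further ligand genes 1 was above the floor in treated MSC, 2 in untreated MSC, 2 in osteoblasts and 3 in embryonic stem cells. Gdf7, a ligand known for roles in spinal cord and tendon, was above the floor in all 4 arrays, at 6.47, 6.89, 7.38 and 7.17 in that order. Bmp3 was above the floor in untreated MSC (6.60) and stood at 5.82 in treated MSC, under the floor. Gdf6, a ligand of joint and skull development, stood at 4.71 in treated MSC and 5.48 in untreated MSC, against 6.81 in osteoblasts, with differences of -2.10 and -1.33. Bmp5 had signal in embryonic stem cells alone (6.56), with differences of -1.36 in treated MSC, -1.45 in untreated MSC and -1.08 in osteoblasts. Bmp7 differed by -1.27 in treated MSC minus embryonic stem cells.

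Among the secreted antagonists, Grem1 had signal in every array, unlike Bmp2 and Bmp4. Grem1, which encodes gremlin, stood at 10.11 in treated MSC, 10.87 in untreated MSC, 8.78 in osteoblasts and 11.18 in embryonic stem cells. All 4 levels were well above the floor, and osteoblasts were the low array. Grem1 was 2.51-fold higher in treated MSC and 4.24-fold higher in untreated MSC than in osteoblasts, log2 differences of 1.33 and 2.08. In untreated MSC minus embryonic stem cells the difference was -0.32, less than the probe set SD of 0.42. Between treated and untreated MSC Grem1 differed by -0.76. This missed 2-fold, and 7.0% of genes above the floor differed as much in either direction. Nog, which encodes noggin, stood at 6.14 in treated MSC, 6.03 in untreated MSC, 6.30 in osteoblasts and 6.98 in embryonic stem cells. Only the last was above the floor, and Nog passed 2-fold in 0 of the 6 comparisons as deposited, and in untreated MSC minus embryonic stem cells once centred (-1.04).

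Of 15 further antagonists and modulators, 5 were lower and 0 higher in treated MSC than in osteoblasts, and 6 were lower and 0 higher in untreated MSC. Over all genes above the floor, 9.71% were lower and 7.5% higher in treated MSC, and 13.3% lower and 8.17% higher in untreated MSC. Of the 15, 7 had signal above the floor in the array of each pair with the higher level. Bmp1 and Tll1, proteinases that cleave the antagonist chordin, were among them in both arrays. Bmp1 stood at 7.35 and 7.83 in treated and untreated MSC, against 10.06 (osteoblasts) and 9.80 (embryonic stem cells). Tll1 lay below the floor in treated (4.57) and untreated MSC (5.16) and above it in osteoblasts (7.89) and embryonic stem cells (8.08). Bmper, a secreted BMP modulator, differed by -1.58 and -1.67 in treated and untreated MSC minus osteoblasts, and Fstl3, an activin-binding protein, by -1.81 and -1.78. Fst, which encodes follistatin, stood at 7.19 in treated MSC, 6.80 in untreated MSC, 8.18 in osteoblasts and 9.99 in embryonic stem cells, with differences of -0.99 and -1.39 in treated and untreated MSC minus osteoblasts; the first lay just short of 2-fold and passed it once centred (-1.08). Cer1, a Nodal and BMP antagonist of the early embryo, was above the floor only in embryonic stem cells, at 6.77. These 15 genes had median differences of -0.60 and -0.46 in treated and untreated MSC minus osteoblasts, beside 0.09 and 0.09 over all genes above the floor. The matrix marker list lay lower in the same direction, where of 14 genes 13 were at least 2-fold lower in treated MSC than in osteoblasts and 12 in untreated MSC, and its part in the result was not tested.

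The inhibitory Smads differed little. Smad7, which restrains both BMP and TGF-beta receptors, stood at 8.33 in treated MSC, 8.07 in untreated MSC, 8.24 in osteoblasts and 8.63 in embryonic stem cells. Its whole range over the 4 arrays was 0.55, the smallest of the 10 genes. Smad6, which acts mainly on BMP receptors, stood at 6.04 in treated MSC, 6.13 in untreated MSC, 6.94 in osteoblasts, with 6.75 in embryonic stem cells. The MSC levels were under the floor and the others a little above it. Smad6 differed by -0.89 and -0.80 in treated and untreated MSC minus osteoblasts and passed 2-fold in 0 of 6 comparisons.

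Most genes of the machinery between receptor and nucleus had signal in each array. Of 12 receptors and co-receptors 9 were above the floor in each MSC array and in osteoblasts, and 10 in embryonic stem cells. Against osteoblasts 1 was higher and 2 were lower in each MSC array. Over all genes above the floor, 7.5% were higher and 9.71% lower in treated MSC, and 8.17% and 13.3% in untreated MSC. Of 6 transducer Smads 5 were above the floor in each array and 0 passed 2-fold in any of the 6 comparisons as deposited. The nearest were Smad3, a transducer of TGF-beta, at -0.93 in treated MSC minus osteoblasts, and Smad1 at -0.96 in untreated MSC minus embryonic stem cells, and 1 transducer passed in each of these pairs once differences were centred on the median of all genes. Smad1, a BMP receptor Smad, stood at 7.58 in treated MSC, 7.40 in untreated MSC, 7.66 in osteoblasts and 8.35 in embryonic stem cells, and Smad5, another, at 8.51, 8.70, 8.24 and 8.49. The shared partner Smad4 ranged over the arrays from 9.23 to 9.68. The type I receptor Bmpr1a stood at 8.76, 8.58, 9.31 and 9.23 in the order with bFGF, without, osteoblasts and embryonic stem cells, and the type II receptor Bmpr2 at 8.75, 8.72, 8.74 and 8.28. Acvrl1, a type I receptor known for its role in blood vessels, differed by -1.76 and -1.83 in treated and untreated MSC minus osteoblasts. The co-receptor gene Eng stood at 6.98 in treated MSC and 5.92 in untreated MSC, against 9.26 in osteoblasts. Neo1, which encodes the receptor neogenin of the repulsive guidance molecules, was higher in MSC than in both controls. It stood at 9.72 in treated MSC and 10.20 in untreated MSC, against 8.53 (osteoblasts) and 8.30 (embryonic stem cells). Acvr2b, a type II receptor shared with activin, was lower than in embryonic stem cells (7.72) by 2-fold or more in all 3 other arrays, with differences from -1.83 to -1.38.

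The 4 Id genes did not share a single order across the arrays. Id2 stood at 10.14 in treated MSC, 8.39 in untreated MSC, 10.40 in osteoblasts and 8.16 in embryonic stem cells. Id2 thus had a high and a low pair of arrays, and treated MSC fell in the high one. The gap within the high pair was -0.25 (treated MSC minus osteoblasts) and within the low pair 0.23 (untreated MSC minus embryonic stem cells), each less than the probe set SD of its pair (0.36 and 0.42). Id2 was 3.37-fold higher with bFGF than without, a log2 difference of 1.75, and 1.94% of genes above the floor differed as much in either direction. Id3 stood at 6.98 in treated MSC and 6.49 in untreated MSC, against 9.33 (osteoblasts) and 8.86 (embryonic stem cells). Both MSC arrays were thus far under both controls. Id3 was 5.07-fold lower in treated MSC and 7.12-fold lower in untreated MSC than in osteoblasts, and 3.67-fold and 5.15-fold lower than in embryonic stem cells.

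Id1, the classical BMP target, stood at 7.38 in treated MSC, 6.49 in untreated MSC, 7.28 in osteoblasts and 7.94 in embryonic stem cells. Untreated MSC were the low array, just above the floor. Id1 differed by 0.89 between treated and untreated MSC, short of 2-fold, and 5.45% of genes above the floor differed as much. It passed 2-fold in 1 comparison of the 6, with a difference of -1.44 in untreated MSC minus embryonic stem cells. In treated MSC minus osteoblasts its difference of 0.10 was within the probe set SD. Id4 stood at 5.76 in treated MSC and 6.18 in untreated MSC, both under the floor, against 7.15 (osteoblasts) and 6.86 (embryonic stem cells). Id4 differed by -1.39 and -0.97 in treated and untreated MSC minus osteoblasts, and by -1.10 and -0.68 minus embryonic stem cells. These calls lay near 2-fold: with differences centred on the median of all genes, Id4 passed in untreated MSC minus osteoblasts (-1.07), and under repeated quantile normalization it missed in treated MSC minus embryonic stem cells (-0.99). Between osteoblasts and embryonic stem cells its difference of 0.29 was less than the probe set SD of 0.36, while the difference of 0.47 for Id3 was more.

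**Figure D2:**
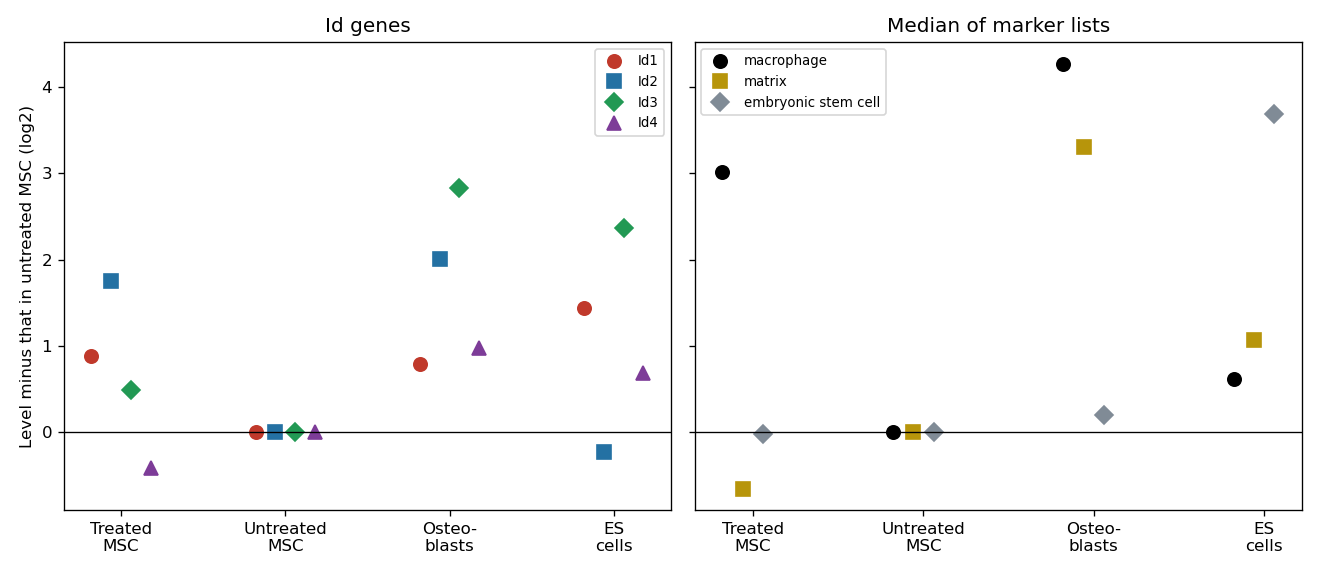
Level of each Id gene (left) and median level of 3 marker lists (right), each as log2 difference from its own value in untreated MSC, for the 4 arrays on the horizontal axis with 1 point per gene or list. Id2 and the macrophage median are both higher in treated MSC and in osteoblasts, Id2 standing at 10.14 and 10.40 there against 8.39, while Id3 is higher in osteoblasts (9.33) and embryonic stem cells (8.86) than in either MSC array.

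Markers of macrophages, by their median, moved in the same arrays as Id2, a gene that leukocytes also express. The median level of the 16 macrophage markers was 9.94 in treated MSC, 6.92 in untreated MSC, 11.20 in osteoblasts and 7.54 in embryonic stem cells. Their levels summed on the linear scale to 16409 intensity units in treated MSC, 2301 in untreated MSC, 43072 in osteoblasts and 5546 in embryonic stem cells. With bFGF 14 of the 16 were 2-fold or more higher than without, and 0 were lower. In treated MSC minus embryonic stem cells, where Id2 lay above 0, 13 of the 16 lay above 0 and 3 below. Those below were Adgre1 (7.71 against 9.05), Lyz2 (10.71 against 11.14) and Mrc1 (4.92, under the floor, against 6.76). Of the defining markers Ptprc, Adgre1 and Spi1 were under the floor in untreated MSC, and Cd163 was under it in all 4 arrays. The part of these cells in the Id2 difference was not tested. Id3, like the macrophage median, was highest in osteoblasts and lowest in untreated MSC, but the order of the other arrays differed. Id3 stood at 6.98 in treated MSC and 8.86 in embryonic stem cells, where the macrophage median was 9.94 and 7.54. Single markers varied: Adgre1, Lyz2 and Mrc1 had the same order of the 4 arrays as Id3, and the other 13 did not. The part of macrophages in the Id3 levels was not tested.

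Genes of E proteins, which Id proteins bind, and of related basic helix-loop-helix factors differed by less than 2-fold between the MSC arrays. Of 7 measured, 7 were below 0 in treated minus untreated MSC (6 once a loess curve was removed) and 0 passed 2-fold. Their median was -0.27, beside -0.00 over all genes above the floor. The probe set SD of 0.26 is for single probe sets and does not gauge a median over 7 genes. Of the 7, 6 had signal, and Myod1 was under the floor in both arrays. Over all genes above the floor 4.09% were higher and 0.467% lower, so 0 of 6 cannot set these genes apart. In the same pair 12 of 14 matrix markers lay below 0, with a median of -0.33, and 14 of 16 macrophage markers were higher, and their part in these values was not tested. The E protein genes Tcf3, Tcf4 and Tcf12 stood at 8.65, 8.70 and 9.25 with bFGF, against 8.82, 9.14 and 9.45 without. Twist1, a mesenchymal factor that pairs with E proteins, stood at 9.20 with bFGF and 9.59 without. In MSC minus osteoblasts the median was 0.20 with bFGF and 0.50 without, beside 0.09 and 0.09 over all genes above the floor. Again 0 of 7 genes passed 2-fold. Of all genes above the floor, 7.5% were higher and 9.71% lower with bFGF, and 8.17% and 13.3% without. Twist2 was lower in treated MSC (7.08), untreated MSC (7.35) and osteoblasts (6.76) than in embryonic stem cells (9.19).

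In the comparison of bFGF itself, 1 of the 10 genes, Id2, was counted as higher, where 4.09% of 10483 genes above the floor were higher. Lower were 0 of them, where 0.467% of genes were, and 5 of the 10 had signal above the floor. Of those 5, Id1, Id2, Id3 and Smad7 lay above 0 and Grem1 below. The median over all 10 was 0.01 beside -0.00 over all genes. Among 89 further genes in 8 lists of BMP, E protein and TGF-beta genes, only the co-receptor Eng and the antagonist Nbl1 passed 2-fold. Eng, which encodes endoglin, stood at 6.98 with bFGF and 5.92 without, with 9.26 in osteoblasts and 7.02 in embryonic stem cells. Nbl1 stood at 5.80 with bFGF and 6.96 without, with 8.41 in osteoblasts and 7.86 in embryonic stem cells. Of 13 other BMP-responsive genes 0 passed 2-fold between the MSC arrays, with a median of 0.09 and 5 above the floor. The homeobox gene Msx1 stood at 6.70 with bFGF and 6.61 without, Msx2 at 6.46 and 6.12, and the T-box gene Tbx3 at 6.62 and 7.27. Bambi, a BMP-induced pseudoreceptor that blocks signalling, stood at 6.52 with bFGF and 6.70 without.

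**Figure D3:**
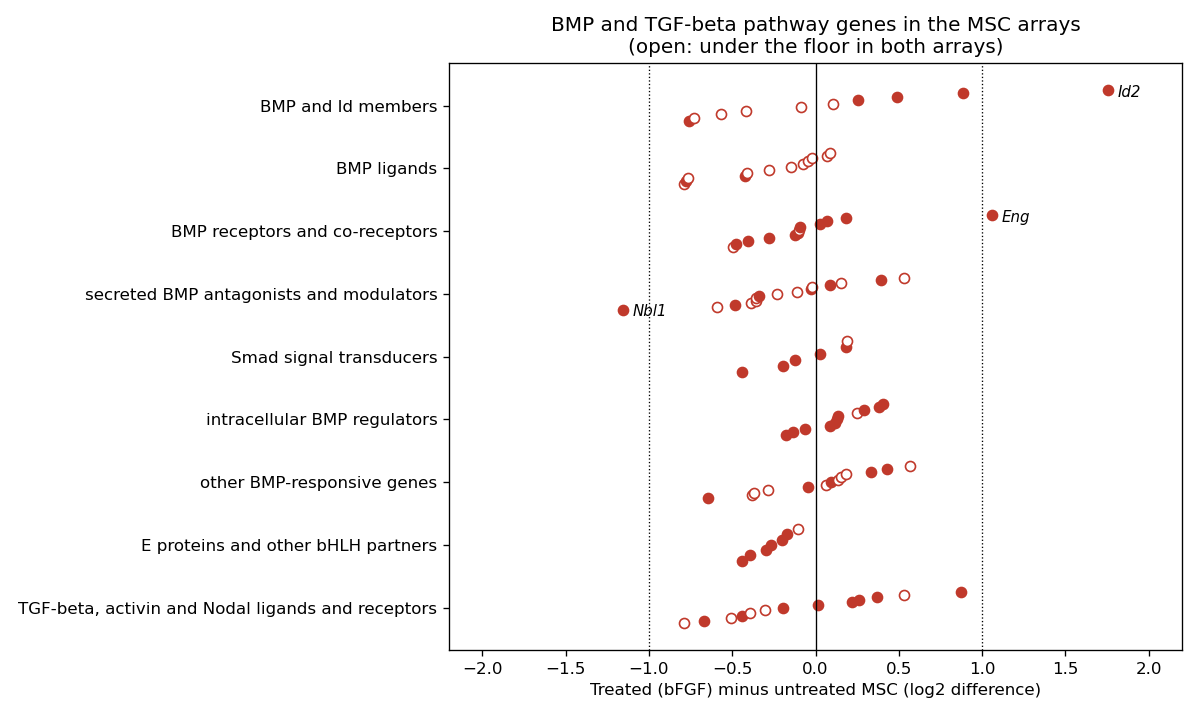
Log2 difference of treated MSC minus untreated MSC (horizontal axis) for the 10 genes and for 8 lists of pathway genes (vertical axis), with 1 point per gene, open where both arrays are under the floor, and dotted lines at 2-fold. Only Id2, Eng and Nbl1 lie outside the dotted lines, and all 7 E protein and partner genes lie below 0 as deposited (6 once a loess curve was removed).

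Against osteoblasts, 1 gene was higher and 3 were lower in each MSC array. In treated MSC Grem1 was higher and Id3, Id4 and Bmp4 were lower, where 7.5% of 10798 genes were higher and 9.71% were lower. In untreated MSC Grem1 was higher and Id2, Id3 and Bmp4 were lower, where 8.17% of 10973 genes were higher and 13.3% were lower. The median over the 10 genes was -0.21 with bFGF and -0.79 without, beside 0.09 and 0.09 over all genes. Of the 13 other BMP-responsive genes 3, Msx2, Dlx5 and Atoh8, were lower in each MSC array, and 0 were higher. Msx2 differed by -1.74 and -2.08, Dlx5, a homeobox gene of osteoblasts, by -1.69 and -1.40, and Atoh8 by -1.26 and -1.44, in treated and untreated MSC. Pmepa1, a target and inhibitor of TGF-beta signalling, was also lower in both, with differences of -1.20 and -1.60. Of 13 TGF-beta, activin and Nodal genes 5 were lower and 0 higher in each. They included the ligand Tgfb3 (-3.09 and -2.90), the activin subunits Inhbb (-3.05 and -2.54) and Inhba (-1.74 and -2.00), and the receptor Tgfbr1 (-1.57 and -1.95).

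Against embryonic stem cells more of the 10 genes were lower than higher in each of the 3 other arrays. All 10 had signal in embryonic stem cells, so a gene under the floor in the other array could only be counted as lower. That held for Bmp2, Bmp4, Id4, Smad6 and Nog in both MSC arrays, and for Bmp2 and Nog in osteoblasts. In treated MSC 1 gene (Id2) was higher and 5 (Id3, Id4, Bmp2, Bmp4 and Grem1) were lower, where 11.3% of 10932 genes were higher and 10.6% were lower. In untreated MSC 0 were higher, where 10.4% of 10977 genes were, and 4 (Id1, Id3, Bmp2 and Bmp4) were lower, where 11.8% were. In osteoblasts 1 (Id2) was higher, where 12.3% of 10927 genes were, and 2 (Bmp2 and Grem1) were lower, where 8.83% were. In each MSC array 9 of the 10 genes lay below 0, and Id2 was the exception in both. The median over the 10 genes was -0.96 in treated MSC, -0.82 in untreated MSC and -0.52 in osteoblasts, beside 0.12, 0.10 and 0.03 over all genes. The Nodal antagonists Lefty1 and Lefty2, and Nodal itself, which are pluripotent cell genes, stood at 9.52, 9.33 and 7.95 in embryonic stem cells and under the floor in the other 3 arrays. Prdm1, a germ cell regulator that BMP induces in the mouse embryo, stood at 7.47 in that array and at 4.70, 4.55 and 5.88 in treated MSC, untreated MSC and osteoblasts. Msx1 differed by -1.59 and -1.68 in treated and untreated MSC.

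**Figure D4:**
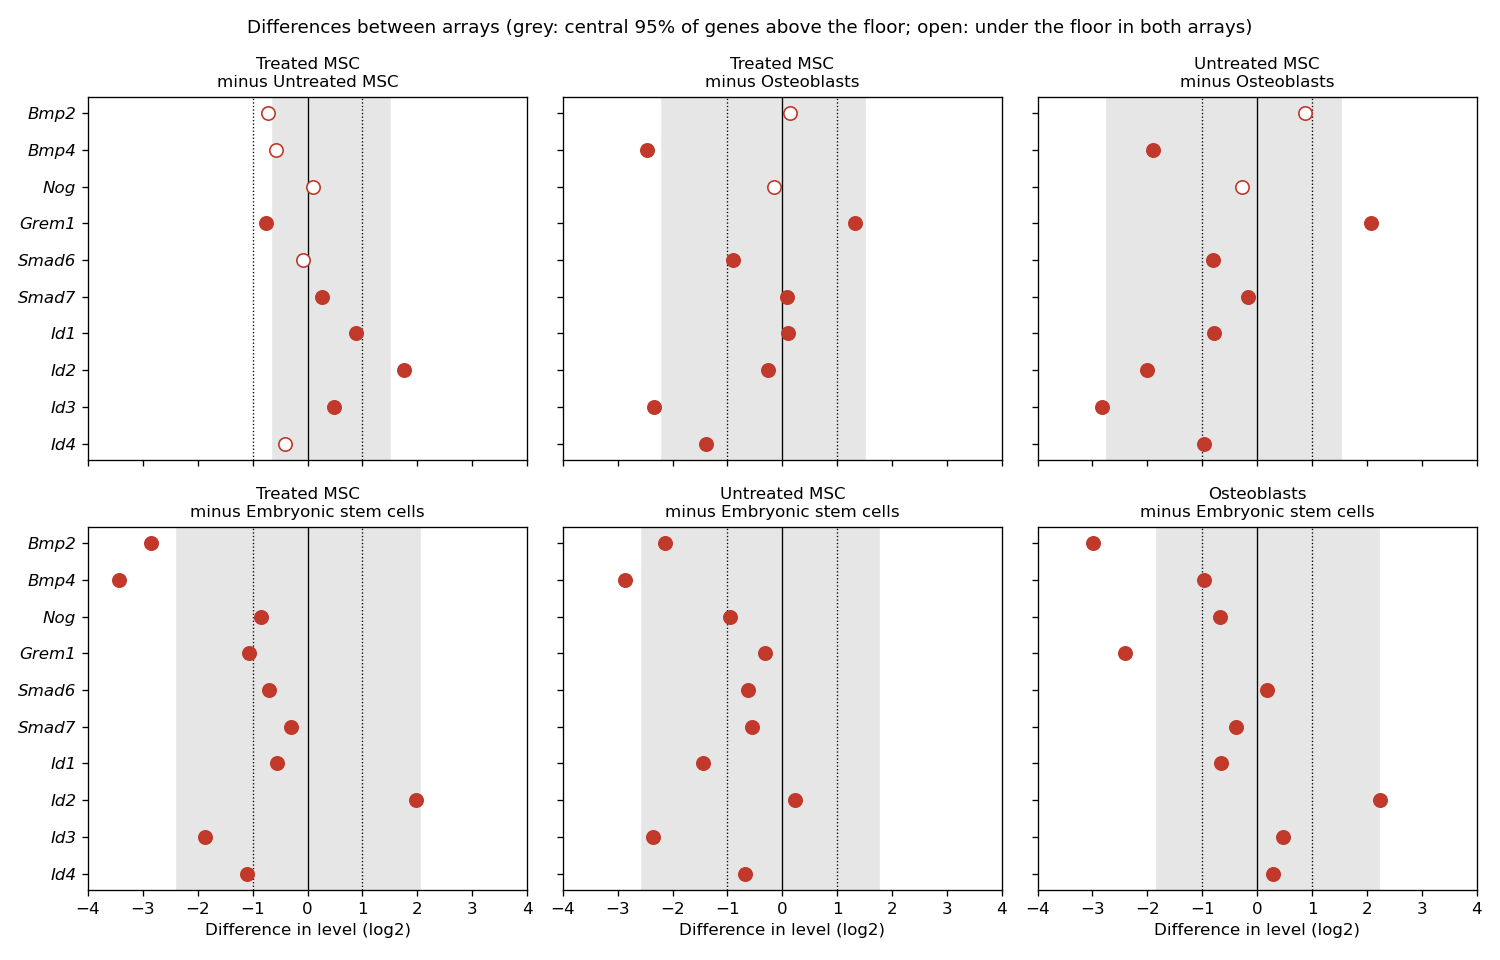
Log2 difference of each of the 10 genes (vertical axis) in the 6 comparisons, with 1 point per gene, open where both arrays are under the floor. Dotted lines stand at 2-fold and the grey band holds the central 95% of genes above the floor. Bmp4 and Id3 lie left of 0 in every comparison of an MSC array with a control, and Grem1 lies right of the 2-fold line against osteoblasts (1.33 and 2.08).

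For the 5 genes whose levels ranged over at least 2 log2 units, the genes of most similar pattern over the 4 arrays were sought among 11193 genes with signal in at least 1 array. Likeness was the root mean square difference of levels after each gene was centred on its own mean, so smaller is closer. Nearest to Id2 were the interferon-inducible gene Ifi27l2a (0.11), the lipid phosphatase gene Inpp4b (0.13) and the leukocyte adaptor gene Dok3 (0.13). Dok3 stood at 8.12 in treated MSC, 6.55 in untreated MSC, 8.53 in osteoblasts and 6.51 in embryonic stem cells. Nearest to Id3 were Lifr, the receptor of leukemia inhibitory factor (0.09), the ephrin receptor Epha4 (0.14) and Ms4a4a (0.16). Nearest to Bmp4 were Arrdc4 (0.09), the guidance ligand gene Slit3 (0.13) and the Wnt receptor gene Fzd7 (0.13). Nearest to Bmp2 were Cecr2 (0.10), B3gnt5 (0.14) and Rhpn2 (0.17), and like Bmp2 they were high in embryonic stem cells alone, at 7.69, 7.64 and 7.91. Grem1 had no neighbour as close: the nearest were the lactate transporter gene Slc16a1 (0.26), the nucleoporin gene Nup43 (0.26) and the cytokine signalling inhibitor Socs2 (0.26). With 4 arrays, such likeness describes these cultures only.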

How the data were processed

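The 4 RNA samples of cultured C57BL/6 mouse cells had 1 Affymetrix array each. Per the submitters' processing notes, the deposited levels were made by the authors with Affymetrix Expression Console and RMA; no version and no genome build is given in the sources used here. The log2 scale of the deposited values was inferred from their range, 1.40 to 14.28. RMA makes array distributions alike, so a general shift in RNA per cell would not show. Of 35556 probe sets 21789 had 1 symbol in the platform annotation, 1621 had several and 12146 none; those with 1 symbol gave 19938 genes, each taken from its probe set of highest mean. Differences are first-named minus second-named array. With 1 array per group there was no replicate check and no test. The 10 genes and the gene lists were chosen with earlier results of these data known. Genes named were the 10, list genes past 2-fold (all for the MSC pair, up to 4 per list and direction otherwise) and the 3 most alike per gene; Gdf7, Bmp3, Smad1, Smad3, Smad4, Smad5, Bmpr1a, Bmpr2, Tcf3, Tcf4, Tcf12, Twist1, Bambi, Cd163, Ptprc, Adgre1, Spi1, Sp7, Alpl, Ibsp and Pth1r were added after their values were seen. In the comparison of treated and untreated MSC, so were Msx1, Msx2, Tbx3 and Myod1. Among the markers, Thy1, Lepr, Cxcl12, Nt5e, Zfp42, Esrrb, Fgf4, Lyz2 and Mrc1 were likewise added after their values were seen. Counting was tested on simulated data. Alternatives were the mean of probe sets, other floors and thresholds, centring, a loess curve and repeated quantile normalization. The software was Python 3.11.15 with pandas 2.3.3, numpy 2.4.6 and statsmodels 0.14.6.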

Additional observations from a re-analysis of the deposited data

How the results depend on the processing

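Each count of the 10 genes past 2-fold was repeated under 8 alternatives. The mean of probe sets could not move it, since each gene has 1 probe set, and of the 42 other counts 33 lay within 1.5 times of the count reported. At 1.5-fold, 3 genes passed in treated minus untreated MSC (Id1 and Id2 higher, Grem1 lower), 7 in untreated MSC minus osteoblasts, 7 in untreated MSC minus embryonic stem cells and 6 in osteoblasts minus embryonic stem cells. At 4-fold, 0 passed in treated minus untreated MSC, 2 in treated MSC minus osteoblasts (Id3 and Bmp4) and 2 in treated MSC minus embryonic stem cells (Bmp2 and Bmp4). With the floor at the 75th percentile of each array, 2 passed in treated MSC minus osteoblasts (Grem1 and Id3) and 2 in untreated MSC minus embryonic stem cells (Id3 and Bmp4). A count can stay alike while its genes change. Under that floor every Bmp2 call was lost, all of which rest on its level of 7.09 in embryonic stem cells. Bmp4 was also lost in untreated MSC minus osteoblasts, and Id4 in treated MSC minus embryonic stem cells. These follow from stricter or looser counting. Centring, a loess curve and repeated quantile normalization moved each gene's difference by at most 0.19, and changed the sign only of Smad6 between the MSC arrays (0.01 with a loess curve removed) and of Smad7 in treated MSC minus osteoblasts (-0.08 with a loess curve removed, -0.03 with repeated quantile normalization). Both were near 0 as deposited. Id4 passed 2-fold in untreated MSC minus osteoblasts when centred (-1.07), and did not pass in treated MSC minus embryonic stem cells under repeated quantile normalization (-0.99). Nog passed in untreated MSC minus embryonic stem cells when centred (-1.04), and Bmp4 in osteoblasts minus embryonic stem cells under repeated quantile normalization (-1.01). Centring on the median of all genes moved differences by up to 0.12. Of all genes above the floor, 1131 passed 1.5-fold and 161 passed 4-fold in treated minus untreated MSC, against 478 at 2-fold. No paired analysis was possible because each group has 1 array, and levels under the floor, as for Bmp2, Bmp4, Id4, Smad6 and Nog in both MSC arrays, limit what these arrays can show.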
